A study of Mus musculus with 40 samples.

Results

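The nuclear genes of the respiratory chain were followed in mpkCCD cells, an immortalized mouse cell line of the kidney collecting duct. They were chosen by name from the deposited table: symbols that start with Nduf, Uqcr or Atp5 or with Cox4 to Cox8, together with Sdha, Sdhb, Sdhc, Sdhd, Cyc1 and Cycs, leaving out 14 pseudogene rows marked -ps. This gave 102 of the 55414 genes in the table. They comprise 41 rows named for complex I, 8 complex I assembly factors that carry the Ndufaf names, 4 genes of complex II, 9 of complex III, 21 of complex IV, 18 of ATP synthase (complex V) and cytochrome c. Ndufa4 and Ndufa4l2 were counted with complex IV, where the protein sits despite its name.

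The respiratory chain passes electrons from NADH (complex I) and succinate (complex II) through complex III, cytochrome c and complex IV to oxygen, and ATP synthase uses the resulting proton gradient. Most subunits are encoded in the nucleus and meet a small set encoded by mitochondrial DNA, so assembly depends on both genomes. ATF1, CREB1 and CREM form a family of transcription factors that bind the cAMP response element (CRE), and vasopressin raises cAMP in collecting duct cells.

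All cells were grown on Transwell supports and given 0.1 nM dDAVP, an analogue of vasopressin, for 72 hours, so that no group lacks the hormone. Of the 22 libraries in the table, 11 come from control clones that were not edited. The knockout libraries lack ATF1 by label (ATF1-KO, 5), both ATF1 and CREB1 (ATF1/CREB1-KO, 3), or CREM as well (ATF1/CREB1/CREM-KO, 3). By the library numbers in the labels they form 3 consecutive sets, called runs here although the labels do not call them batches: control clones 1 to 5 with ATF1-KO (run 1), 6 to 8 with ATF1/CREB1-KO (run 2) and 9 to 11 with ATF1/CREB1/CREM-KO (run 3). The labels do not say whether the libraries of a knockout label come from separate clones, so the p-values measure the spread between these libraries. Rescue samples that the labels also describe were not analysed here. Values are TPM, a gene's length-corrected share of the transcripts in a library, which sum to the same total in each library, so the number of reads behind a value is unknown.

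Aqp2, the vasopressin-regulated water channel of principal cells, averaged 1516 TPM in control clones 9 to 11 and 15.5 TPM in the libraries labelled ATF1/CREB1/CREM-KO. Of 13 principal cell markers, 8 averaged at least 1 TPM in the control clones, while Kcnj1, Elf5 and Tfap2b stayed under 1 TPM in every library. Markers of endothelium stayed under 1 TPM in all libraries, and none of 4 fibroblast markers or of 4 thick limb and distal tubule markers averaged 1 TPM in the control clones. Each of these further lists had 1 gene at that level in the control clones: Atp6v1b1 of intercalated cells (mean 45.0 TPM), Lrp2 of the proximal tubule (12.5 TPM) and Cd68 of leukocytes (7.04 TPM); the other markers of intercalated cells and proximal tubule stayed under 1 TPM in every library. The summed principal cell markers lay at 1571 to 3651 TPM in control clones 9 to 11 and 609 to 1396 TPM in ATF1/CREB1/CREM-KO, and without Aqp2 at 930.1 to 1371 TPM and 593 to 1381 TPM, which overlapped. Fxyd4 (51.8 to 304 against 319 to 695 TPM) and Gata3 (150 to 193 against 209 to 221 TPM) lay lower in the knockout. Avpr2 lay lower (140 to 152 against 154 to 217 TPM) and Aqp3 higher (6.18 to 12.3 against 2.16 to 5.91 TPM). Of the epithelial markers, Krt8 (874 to 990 against 1288 to 1557 TPM) and Krt18 (2585 to 3797 against 4180 to 5162 TPM) lay lower. Cdh1 (1202 to 1278 against 785 to 850 TPM) and Epcam (897 to 1080 against 768 to 865 TPM) lay higher. Slc12a3 alone of the thick limb and distal list exceeded 1 TPM in any library, at 1.24 to 4.40 TPM in ATF1/CREB1/CREM-KO, and Cd68 was at 4.89 to 7.75 TPM in those control clones and 1.88 to 2.97 TPM in that knockout; the part of these genes in the results below was not tested. Creb1 fell in ATF1/CREB1/CREM-KO, from 37.7 to 18.7 TPM (limma adjusted p = 0.0030). Crem RNA was 30.5 TPM there against 22.7 TPM in its control clones (limma adjusted p = 0.12) and Atf1 RNA 26.6 TPM in ATF1-KO against 42.2 TPM (limma adjusted p = 0.56), with all 5 ATF1-KO libraries (17.5 to 37.79 TPM) below the lowest control clone at 37.82 TPM. In ATF1/CREB1-KO Creb1 was at 3.86, 3.59 and 2.72 TPM against 4.98 to 6.69 TPM. It was called only with run as a covariate (limma adjusted p = 0.0078), a fit that takes each gene's spread from all 22 libraries. Atf1 in ATF1/CREB1-KO was at 18.3, 23.7 and 15.1 TPM against 23.3 to 26.2 TPM, so that replicate 2 stood within the control range. Atf1 in ATF1/CREB1/CREM-KO was at 23.7, 40.8 and 32.7 TPM against 39.8 to 40.5 TPM, so that replicate 2 stood at the control level. Residual RNA does not show whether protein is made, and the RNA of Atf1 and Crem does not check every label.

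Of the 102 genes, 90 averaged at least 1 TPM in the 8 control clones of runs 1 and 3, and 77 averaged at least 100 TPM. The median of those 90 was 317 TPM, against 28.3 TPM over the 13374 genes at that level. ATP synthase had the highest median by complex, 541 TPM over 17 genes, followed by complex IV with 500 TPM over 14, complex III with 491 TPM over 9, complex I with 268 TPM over 37 and complex II with 248 TPM over 4. The 8 Ndufaf assembly factors, which help build complex I without staying in it, had a median of 46.3 TPM. Cytochrome c (Cycs), the mobile carrier between complexes III and IV, averaged 83.4 TPM.

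Atp5b, the catalytic beta subunit of ATP synthase, was the most abundant member at 3457 TPM ± 524 (SD, n = 8 clones). Cox4i1 (1324 TPM ± 192) and Cox6a1 (1302 TPM ± 112), both subunits of complex IV, followed and did not differ beyond their spread. Their range over clones also overlapped that of Atp5j and Atp5g3, at 1178 and 1175 TPM. Sdha, the flavoprotein that carries the active site of complex II, ranged from 245 to 294 TPM in these clones and Sdhc, a membrane anchor, from 103 to 199 TPM.

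Isoforms known from other tissues were near 0. Cox4i2, Cox8b, Cox8c and Cox7b2 were listed at 0 in all 8 of these clones, and Cox6a2, the heart and muscle isoform, averaged 0.034 TPM against 1302 TPM for Cox6a1. Ndufa4l2 averaged 0.060 TPM against 885 TPM for Ndufa4. Cox7a1, another muscle isoform, was the exception at 19.3 TPM, beside 418 TPM for Cox7a2, its ubiquitous counterpart. Of the genes under 1 TPM, 10 stayed there in every one of the 22 libraries, and 3 of these were listed at 0 throughout. The members varied by a median of 10.5% between clones (coefficient of variation), against 16.7% over the 13374 genes. The members are also more abundant than the median gene, and these figures were not matched for level. Cycs varied by 31.6%, with 30.7 TPM in control clone 3 and 106 TPM in control clone 11.

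**Figure D1:**
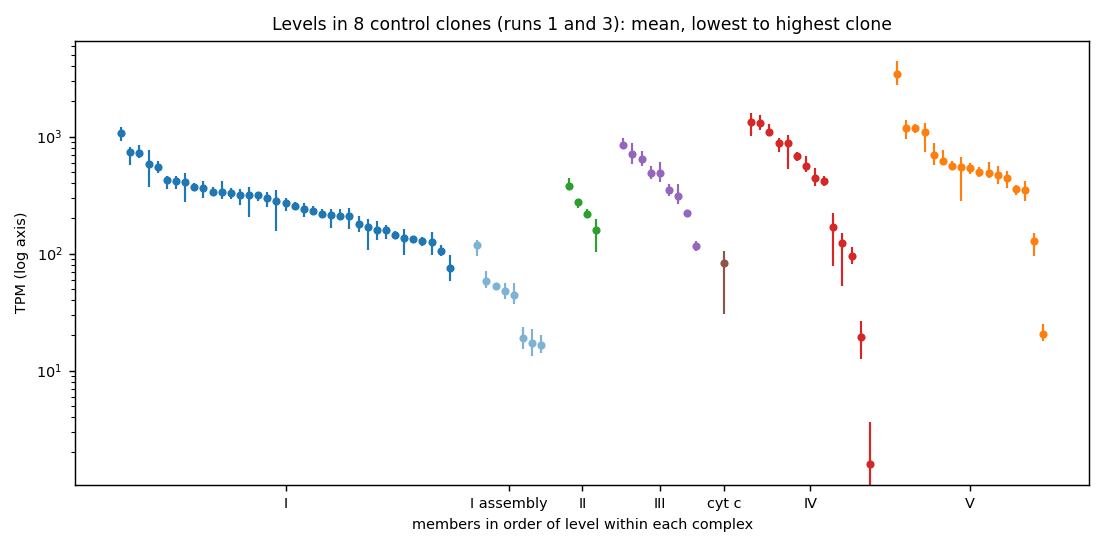
TPM (log axis) of the 90 members that averaged at least 1 TPM, in order of level within each complex; points are means of 8 control clones and lines run from the lowest to the highest clone. Atp5b stands highest at 3457 TPM and Cox6c2, a pseudogene row, lowest at 1.58 TPM, with a line that reaches 0 and so leaves the log axis.

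Some rows share sequence or position with others. Ndufa11b, Ndufb4c, Ndufs6b and Cox6c2 are annotated as processed pseudogenes, Atp5o occurs in 2 rows of which 1 was listed at 0, and the excluded row Ndufa12-ps reached 567.78 TPM, so reads of Ndufa12 may be split with it. Whether the counting used strand is not given in the sources used here, so reads of a member and of a gene on the other strand cannot be told apart.

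The first comparison asked how the members differed between libraries labelled ATF1-KO and control clones 1 to 5. None of the 90 members tested was called (limma on log2(TPM + 1), adjusted p under 0.05 over all genes), and none of 13318 genes was, a background of 0%. At an unadjusted p under 0.05 there were 3 members and 1014 genes. The median member differed by 0.04 on the log2 scale, against -0.003 for all genes. Changes lay between -0.19 and 0.49, and the medians of complexes I to V were 0.04, 0.002, 0.01, 0.05 and -0.01 in that order.

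Cycs marked the upper end. Its levels in control clones 1 to 5 were 57.0, 85.2, 30.7, 88.3 and 99.7 TPM, and in ATF1-KO 90.4, 93.7, 83.8, 101 and 102 TPM. Control clones 1 and 3 were low and the other libraries overlapped, which gave a log2 difference of 0.49 ± 0.27 (SE, limma adjusted p = 0.70). Ndufaf7, a methyltransferase that acts on a complex I subunit, was the one member whose groups did not overlap, at 51.1 to 56.3 TPM in the control clones and 56.5 to 82.6 TPM in ATF1-KO. Its difference of 0.25 ± 0.10 was not called (limma adjusted p = 0.62), and groups did not overlap for 1.3% of all genes.

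The next comparison set libraries labelled ATF1/CREB1-KO against control clones 6 to 8. Again 0 of 90 members were called, beside 9 of 12579 genes (0.0715%), and 2 members had an unadjusted p under 0.05, against 1199 genes. The median member differed by 0.09, against -0.03 for all genes. By complex the medians were 0.09 (I), 0.39 (II), 0.11 (III), 0.12 (IV) and 0.03 (V). Groups did not overlap for 7 of 90 members, 5 higher and 2 lower, against 19% of all genes, 6.67% higher and 12.4% lower. The 5 higher were Ndufs1 and Ndufv2 of the NADH-oxidizing part of complex I, Cox7a2l, Ndufa4 and Atp5md, and the 2 lower were Ndufb2 and Atp5b.

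Replicate 3 of ATF1/CREB1-KO stood apart from the other 2. Sdhd, a membrane anchor of complex II, was at 95.0, 112 and 562 TPM in replicates 1 to 3, with 91.0 to 120 TPM in the control clones. Uqcrfs1, the Rieske iron-sulfur protein of complex III, was at 74.2, 106 and 326 TPM, and Ndufa10 of complex I at 56.8, 79.0 and 244 TPM. For each of these genes replicate 3 alone lay far above the control clones. Replicate 3 was the highest of the 3 for 19 of 29 members with transcripts of 1100 bases or more, and the lowest for 31 of 36 members under 700 bases. No such count was taken over all genes of these lengths, so the members' counts have no background. Without replicate 3, 2 members passed the test, Ndufa11 and Ndufa7, both higher and both on chromosome 17, with 60 genes called in all (0.478%). Without it the median of complex II was -0.07, and those of complexes I, III, IV and V were 0.12, 0.02, 0.23 and 0.13.

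The third comparison set libraries labelled ATF1/CREB1/CREM-KO against control clones 9 to 11. Here 8 of 90 members were called (8.89%), 7 higher and 1 lower, next to 1216 of 13258 genes (9.17%), 3.91% higher and 5.26% lower. The share was near that of all genes, so the count says nothing particular about the members. All but 2 of the called members are subunits of complex I; the others are Ndufaf5 and Cox8a. The median member differed by 0.05, against -0.05 for all genes, and 84 of 90 members lay within 0.5 of no change. No member of complexes II, III or V was called, nor was cytochrome c. These complexes have 4, 9 and 17 tested members, against 37 in complex I, and the counts by complex were not compared by a test. In bulk libraries a lower level per cell and a smaller share of cells with the RNA cannot be told apart.

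**Figure D2:**
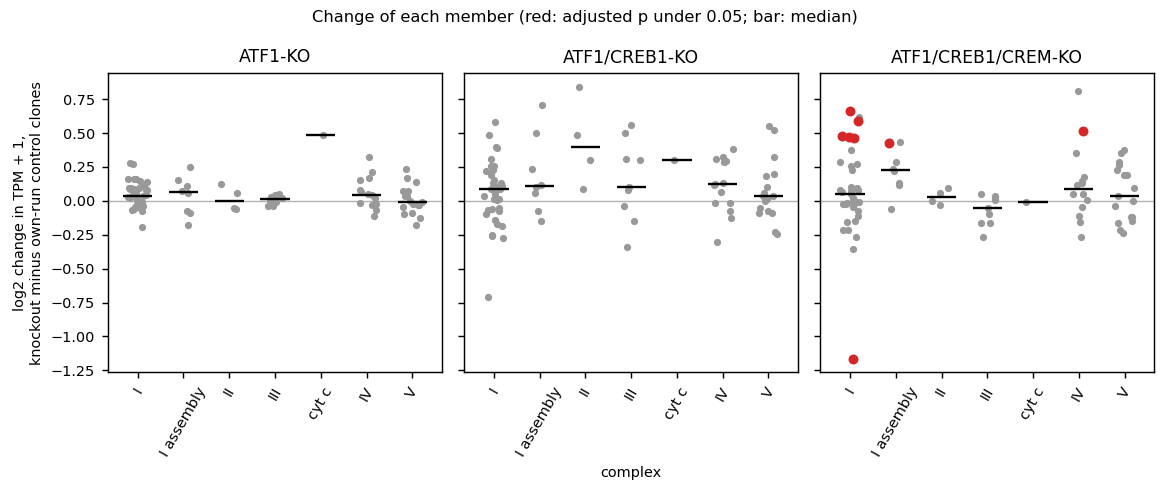
Difference in log2(TPM + 1) between each knockout label and the control clones of its run, for the 90 members tested, by complex; black bars are medians and red points passed the test. No point is red under ATF1-KO or ATF1/CREB1-KO, and 8 are under ATF1/CREB1/CREM-KO, with Ndufb2 at -1.16 far below the rest.

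Ndufb2, an accessory subunit in the membrane arm of complex I, showed the largest difference of any member in this comparison. It was at 348, 373 and 343 TPM in control clones 9 to 11 and at 159, 150.1 and 163 TPM in the 3 knockout libraries. The groups lay far apart and the knockout libraries close together. The fall was to 44.5% of the control mean, or -1.16 ± 0.08 on the log2 scale (SE, limma adjusted p = 8.6e-04, lower in 3 of 3 libraries). The call held when any 1 library was left out, with adjusted p from 3.1e-04 to 0.0123. It was lost (limma adjusted p = 0.25) when all 11 control clones were used, of which clones 6 to 8 stood at 1023 to 1116 TPM.

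The same gene was lower in run 2 and not in run 1. In ATF1/CREB1-KO it was at 572, 849 and 597 TPM, below all 3 control clones of that run (1103, 1023 and 1116 TPM). The difference of -0.71 ± 0.20 was not called within the run (limma adjusted p = 0.37). It was called in the fit over 22 libraries with run as a covariate (limma adjusted p = 0.0149), where 2 of 90 members and 4.58% of genes passed. That fit gives the same log2 difference as the own-run fit. It takes each gene's spread from all 22 libraries instead of those of the run alone, and 609 genes were called against 9. In ATF1-KO Ndufb2 was at 349, 372, 308, 346 and 379 TPM, overlapping control clones 1 to 5 at 206, 332, 299, 297 and 332 TPM.

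The differences between labels were tested too. The own-run change of Ndufb2 was lower in ATF1/CREB1/CREM-KO than in ATF1-KO by -1.44 ± 0.20 (limma adjusted p = 2.0e-04), the only member of 90 called there, with 3.57% of genes. It was lower in ATF1/CREB1-KO than in ATF1-KO by -0.98 ± 0.20 (limma adjusted p = 0.0161), again the only member, with 1.46% of genes; this call was lost without control clone 6 (limma adjusted p = 0.058). Between ATF1/CREB1/CREM-KO and ATF1/CREB1-KO the difference was -0.46 ± 0.23 (limma adjusted p = 0.62), and no member was called, with 0.188% of genes. At an unadjusted p under 0.05 there were 3 of the 90 members (3.33%) and 1115 genes (8.39%).

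Ndufb2 overlaps other genes in GENCODE M21: Gm16272 and Braf on the opposite strand and Gm42420 on its own. Braf averaged 11.4 TPM in control clones 9 to 11 and 11.1 TPM in ATF1/CREB1/CREM-KO. Gm16272 averaged 0.27 and 1.29 TPM and Gm42420 0 and 0.14 TPM. All 3 were at levels far below that of Ndufb2 in both groups.

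The promoter of Ndufb2 holds a full CRE, the 8-letter palindrome TGACGTCA, which reads alike on both strands. Promoters from RefSeq on GRCm38.p6, from 250 bases before to 50 after the start site, were matched by symbol to 78 of the members. These genes have 83 promoters in the table. The palindrome occurred in 5 of them (6.02%), each of a different gene, and in 1.79% of all 32851 promoters. The shorter core TGACG on either strand, which the full motif contains, occurred in 37.3% of the members' promoters and in 20.8% of all. Other motifs were also more frequent in the members' promoters: the NRF1 core GCATGCGC occurred in 15.7% against 2.71% of all, and the ETS motif CCGGAAG in 22.9% against 8.86%, both searched on either strand. The shares of all promoters include those of genes not tested here. Of 9540 genes with a promoter that were tested in ATF1/CREB1/CREM-KO, 351 hold the palindrome, among them 5 of 75 members. For the shorter core and the other motifs no share over tested genes alone was taken. All of these are matches of letters, not measured binding. The windows below end before the start site, read 5′ to 3′ on the gene's strand, and have the CRE in capitals; they are shown because the members that hold it differed in response. Nubpl, an assembly factor for the iron-sulfur clusters of complex I that the naming rule does not include, is added for its change described below.
Ndufb2 (chr6:39592445-39592564, + strand): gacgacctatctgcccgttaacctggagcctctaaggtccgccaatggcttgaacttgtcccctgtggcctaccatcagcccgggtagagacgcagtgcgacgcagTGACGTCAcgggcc
Uqcrfs1 (chr13:30545317-30545376, - strand): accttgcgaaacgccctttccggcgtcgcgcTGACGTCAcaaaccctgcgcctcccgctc
Ndufa10 (chr1:92473792-92473851, - strand): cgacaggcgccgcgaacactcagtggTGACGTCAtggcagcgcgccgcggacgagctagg
Ndufa11 (chr17:56717578-56717637, + strand): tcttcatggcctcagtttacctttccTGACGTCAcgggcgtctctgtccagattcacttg
Cycs (chr6:50566705-50566764, - strand): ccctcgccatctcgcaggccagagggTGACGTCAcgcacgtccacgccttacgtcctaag
Nubpl (chr12:52097686-52097745, + strand): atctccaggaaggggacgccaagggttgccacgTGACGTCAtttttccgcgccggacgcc

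The element begins 14 bases before the start site in Ndufb2, 27 in Nubpl, 29 in Uqcrfs1, 67 in Ndufa10, 158 in Ndufa11 and 169 in Cycs. In ATF1/CREB1/CREM-KO the groups did not overlap for 4 of the 5 members that hold it, lower for Ndufb2, Ndufa10 and Uqcrfs1 and higher for Ndufa11. Over all 90 members groups did not overlap for 33, 26 higher and 7 lower, against 34.6% of all genes, 14.5% higher and 20.2% lower. Ndufa10 was at 248, 257 and 235 TPM in the control clones and 191, 217 and 229 TPM in the knockout libraries (-0.22 ± 0.09, limma adjusted p = 0.19). Uqcrfs1 was at 220.5, 234 and 215 TPM and then 188, 196.5 and 213 TPM (-0.16 ± 0.08, limma adjusted p = 0.25). The knockout libraries of both genes were low by small steps, and neither was called. Cycs was at 97.0, 103 and 106 TPM in the control clones and 96.6, 95.1 and 113 TPM in the knockout libraries, which overlapped.

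Among all tested genes with a full CRE in their promoter, 66 of 351 were called lower in this comparison (18.8%) and 20 higher (5.70%). Of all 9540 tested genes with a promoter in the table, 5.64% were called lower and 4.00% higher. Of 166 genes with the element within 60 bases before the start site, 43 were called lower (25.9%) and 6 higher (3.61%). Ndufb2 is the only member among those called lower. In ATF1/CREB1-KO within the run, 1 of 340 genes with a full CRE was called lower and 0 higher. There 4 of 9126 genes with a promoter were called in each direction. The part of the element in these changes was not tested.

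Nubpl was at 16.9, 17.4 and 16.4 TPM in control clones 9 to 11 and at 0.69, 0.25 and 0.14 TPM in ATF1/CREB1/CREM-KO. All 3 knockout libraries were close to 0, and the log2 difference was -3.74 ± 0.20 (limma adjusted p = 4.5e-04). In ATF1/CREB1-KO it was at 0.76, 1.23 and 3.44 TPM against 6.70, 8.54 and 5.24 TPM, again without overlap (-1.57 ± 0.37); it was not called within the run (limma adjusted p = 0.32) and was called with run as a covariate (limma adjusted p = 7.5e-04). In ATF1-KO it was at 13.1 to 16.95 TPM, overlapping its control clones at 13.1 to 15.3 TPM.

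**Figure D3:**
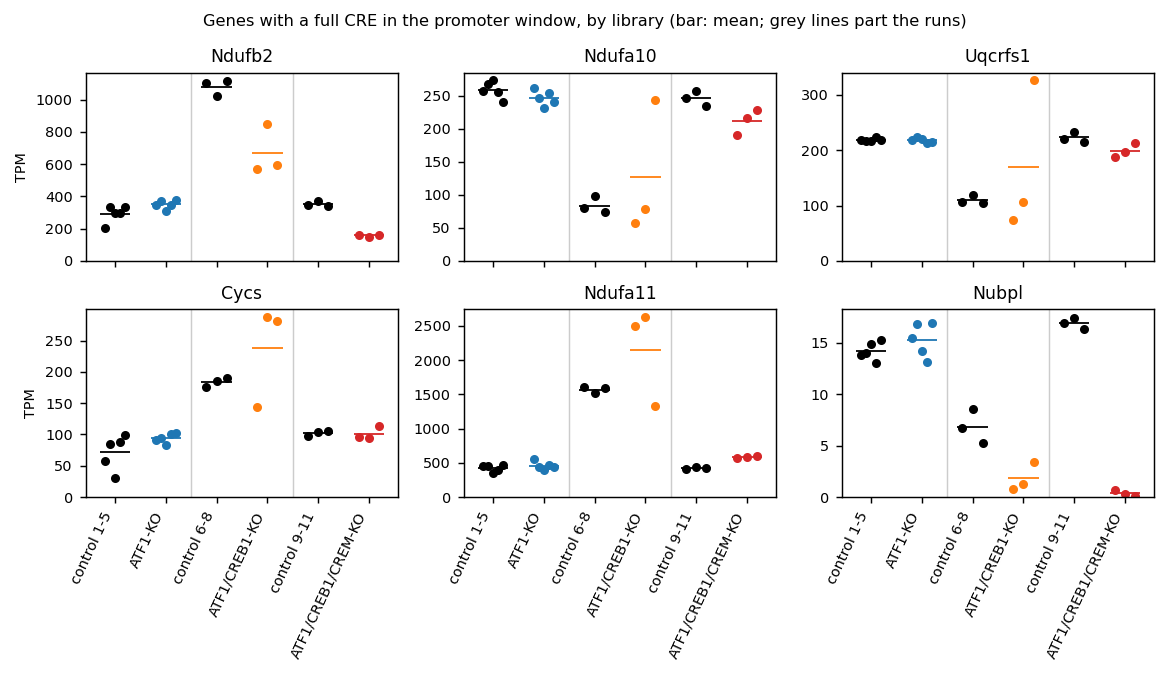
TPM of the 5 members with a full CRE in the promoter, and of Nubpl, in each of the 22 libraries; bars are group means and grey lines part the runs. Ndufb2 and Nubpl lie below their control clones in both the ATF1/CREB1-KO and the ATF1/CREB1/CREM-KO libraries, while Ndufa10 and Uqcrfs1 of ATF1/CREB1-KO are spread by replicate 3.

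The 7 members that were higher in ATF1/CREB1/CREM-KO rose by 0.43 to 0.66 on the log2 scale. Ndufa1, a small membrane subunit of complex I, was at 280, 279 and 273 TPM in control clones 9 to 11 and at 489, 385 and 449 TPM in the knockout libraries (0.66 ± 0.10, limma adjusted p = 0.0141). Ndufv3, of the NADH-oxidizing module, was at 237, 239 and 233 TPM and then 363, 362 and 345 TPM (0.59 ± 0.07, limma adjusted p = 0.0059). Cox8a, the ubiquitous isoform of the smallest nuclear subunit of complex IV, was at 1047, 1193 and 1136 TPM and then 1422, 1678 and 1740.4 TPM (0.52 ± 0.10, limma adjusted p = 0.0312). None of the 3 genes had overlapping groups.

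Ndufv2, the iron-sulfur subunit that pairs with Ndufv1, was at 235, 242 and 218 TPM and then 362.5, 303 and 305 TPM (0.48 ± 0.10, limma adjusted p = 0.0325). It was higher in ATF1/CREB1-KO as well, at 530, 496 and 575 TPM against 388, 389 and 366 TPM, where it was not called within the run (0.48 ± 0.16, limma adjusted p = 0.46) and was called with run as a covariate (limma adjusted p = 0.0274). Ndufa11 of the membrane arm averaged 586 TPM ± 17.0 against 423 TPM ± 18.4 (SD, n = 3 each; 0.47 ± 0.07, limma adjusted p = 0.0144). Ndufa7 averaged 1074 TPM ± 23.4 against 778 TPM ± 25.6 (0.47 ± 0.07, limma adjusted p = 0.0130). Ndufaf5, an enzyme that modifies a complex I subunit during assembly, was at 21.8, 23 and 24.3 TPM against 16.8, 16.7 and 16.9 TPM (0.43 ± 0.10, limma adjusted p = 0.0425).

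With run as a covariate over 22 libraries, 4 of the 8 calls remained, Ndufb2, Ndufa1, Ndufv2 and Cox8a, with 8.02% of genes called. Leaving out 1 library at a time left 2 calls without control clone 9 (1.40% of genes), control clone 11 (2.12%) or replicate 3 of the knockout (3.07%), 3 without its replicate 2 (2.59%) and 4 without control clone 10 (3.70%), except that without ATF1/CREB1/CREM-KO replicate 1 there were 22, 17 higher and 5 lower, with 3317 genes called (25.1%). Ndufb2 and Ndufv3 were called whichever library was left out. Among uncalled members with groups apart and a mean of at least 10 TPM, Ndufa2 had the largest difference upward and Ndufb6 the largest downward. Neither passed the test: Ndufa2 averaged 308 TPM in the control clones and 477 TPM in the knockout libraries (0.62 ± 0.17, limma adjusted p = 0.069), and Ndufb6 was at 164, 156 and 174 TPM and then 154, 125 and 133 TPM (-0.27 ± 0.10, limma adjusted p = 0.15).

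Of the 7 members called higher, 4 lie on chromosome 17: Ndufv3, Ndufa7, Ndufa11 and Ndufv2. The 685 other tested genes of that chromosome had a median change of 0.24, 0.17 and 0.17 in the 3 knockout libraries, where the control clones lay between -0.03 and 0.05. All 7 tested members on chromosome 17 were positive, with a median of 0.47. When the median of the other genes on each chromosome was taken off each library, Ndufv3 stayed called, while Ndufa7 (0.27, limma adjusted p = 0.061), Ndufa11 (0.27, limma adjusted p = 0.0501) and Ndufv2 (0.28, limma adjusted p = 0.062) did not. That setting called 13 members, of which 5 were among the 8, and 11.1% of all genes.

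Chromosome 18 gave a like pattern by library. Its 313 other tested genes had medians of 0.01, 0.42 and 0.43 in replicates 1 to 3 of ATF1/CREB1/CREM-KO. Ndufa2, on that chromosome, was at 368, 550 and 512 TPM, and Atp5a1, the alpha subunit of ATP synthase, at 588, 786 and 827 TPM against 540, 594 and 569 TPM in the control clones. Both genes were higher in replicates 2 and 3 than in replicate 1. Chromosome 16 went the other way, with a median of -0.76 over 407 other genes in replicate 1 and of -0.05 and -0.02 in replicates 2 and 3. Its members were low in replicate 1: Atp5j was at 791, 1353 and 1460 TPM (1314 to 1372 TPM in the control clones), and Atp5o at 362, 683 and 668 TPM (575 to 626 TPM). Chromosomes 15 and 11 had medians of -0.30 and -0.29 in replicate 1, and chromosome 14, which holds no tested member, -0.56 and -0.53 in replicates 2 and 3. In replicate 1 the median of chromosome 14 was -0.06. Replicates 2 and 3 thus lay close together on chromosomes 14, 16 and 18, apart from replicate 1. Whether these 2 libraries come from 1 clone was not tested, so the 3 libraries may not be independent. In ATF1/CREB1-KO chromosome 17 had medians of 0.22, 0.11 and 0.11 in replicates 1 to 3, with control clones between -0.05 and 0.08. Chromosome 16 had -0.41, -0.08 and 0.07 there, chromosome 14 had -0.06, -0.54 and -0.18, and chromosome 18 had -0.10, 0.34 and 0.23. In replicate 3 of that label chromosomes 2 and 4 stood at 0.17 and 0.22. Whether libraries of this label and of ATF1/CREB1/CREM-KO are related was not tested, so like changes in both may not be independent. In ATF1-KO the 686 other genes of chromosome 17 had a median of 0.35 in replicate 1 and of -0.05 to 0.03 in the others. There Ndufv3 was at 300.1 TPM in replicate 1 and 196 to 223 TPM in replicates 2 to 5, and Ndufv2 at 286 TPM and 194 to 221 TPM. The part of these shifts in the other members' changes was not tested.

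**Figure D4:**
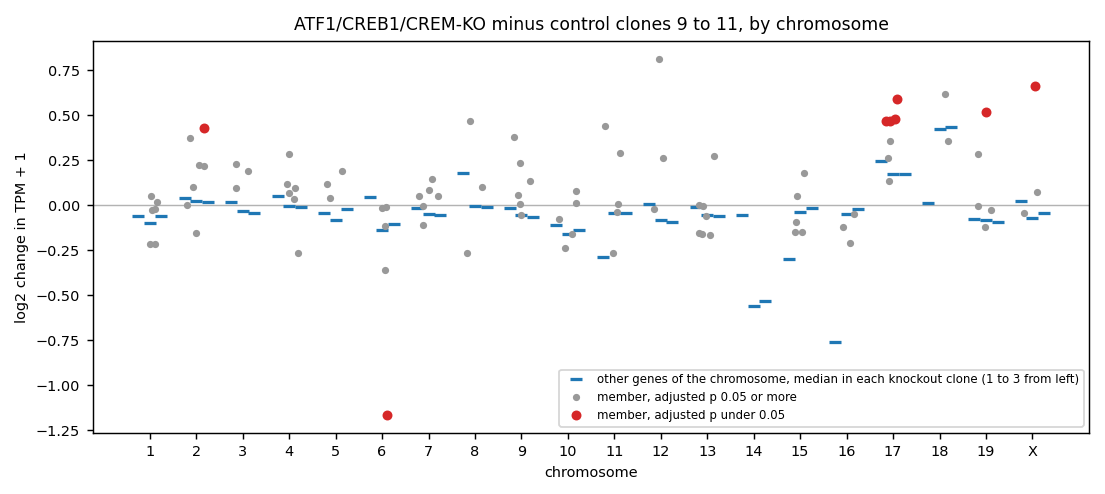
Difference in log2(TPM + 1) of each member between ATF1/CREB1/CREM-KO and control clones 9 to 11, by chromosome, with members that passed the test in red; blue dashes give the median of the other tested genes of the chromosome in each of the 3 knockout libraries. On chromosome 17 the dashes lie at 0.17 to 0.24 and 4 members are red; on chromosome 6 Ndufb2 lies at -1.16.

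Genes that work with the subunits were followed by list, and their calls in ATF1/CREB1/CREM-KO stand beside the 9.17% of all genes called there. None of the lists had a called gene in ATF1-KO, or in ATF1/CREB1-KO within the run. With run as a covariate, where 4.58% of genes were called in ATF1/CREB1-KO, Nubpl was lower there, and the genes called higher included Sco2 and Cox19 of complex IV assembly and Idh3b of the citrate cycle. Of 8 tested complex I assembly factors outside the Ndufaf names, Nubpl fell. Of 6 complex III assembly genes Uqcc2 rose, from 256 to 429 TPM (0.74 ± 0.07, limma adjusted p = 0.0034); it lies on chromosome 17. Of 24 complex IV assembly and mitochondrial RNA genes, Lrpprc, which stabilizes mitochondrial messenger RNA and also lies on chromosome 17, rose by 0.47 and Fastkd2, which processes mitochondrial RNA, fell by 0.46. Of 4 ATP synthase assembly genes Fmc1 fell by 0.46. With run as a covariate these 3 calls were lost (limma adjusted p = 0.091 for Lrpprc, 0.056 for Fastkd2 and 0.096 for Fmc1), while those of Nubpl and Uqcc2 held. No gene was called among 4 for complex II or among 16 regulators of mitochondrial gene programmes.

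Messenger RNAs made from mitochondrial DNA were higher. Of 7 tested, 4 passed, all higher: mt-Cytb of complex III averaged 10170.4 TPM ± 749.99 against 4601 TPM ± 372 (SD, n = 3 each), or 1.14 ± 0.10 on the log2 scale (limma adjusted p = 0.0026). mt-Nd2 rose by 1.16, mt-Nd4 by 0.67 and mt-Nd1 by 0.61, all subunits of complex I; with run as a covariate mt-Nd4 lost its call (limma adjusted p = 0.13). The table lists mt-Atp6, mt-Atp8, mt-Co2, mt-Co3 and mt-Nd4l at 0 in all 22 libraries, although every cell uses them, so the share that follows is that of the listed transcripts alone. They made up 1.90% to 2.49% of TPM in the knockout libraries and 1.14% to 1.34% in control clones 9 to 11. The nuclear members made up 4.01% to 4.27% and 3.84% to 3.97%. The mitochondrial share was also 2.17% to 3.10% in ATF1/CREB1-KO against 1.2% to 1.36% in its control clones, with none of 8 called within the run and a median difference of 0.95. Its replicate 3 went both ways: mt-Cytb was at 8322, 6075 and 12858 TPM in replicates 1 to 3 (3140.5 to 3731 TPM in the control clones), while mt-Nd2 was at 5522, 3255 and 1702 TPM (1705 to 1801 TPM) and mt-Nd4 at 2920.0, 1954 and 944 TPM (1101 to 1480.4 TPM). With run as a covariate 3 of 7 were called higher in ATF1/CREB1-KO: mt-Nd1, mt-Nd5 and mt-Cytb. Of 17 citrate cycle genes Pdha1, of pyruvate dehydrogenase, fell by 0.45, and of 18 glycolysis rows 3 rose: Aldoa by 0.71, Pfkp by 0.70 and Pgk1 by 0.61. With run as a covariate Aldoa (limma adjusted p = 0.083) and Pfkp (0.074) lost their calls.

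Control clones of run 2 differed from the other control clones in the members more than any knockout label did from its own controls. The 102 genes made up 10.0% to 10.7% of TPM in control clones 6 to 8, and 3.55% to 3.97% in the other 8. Of 90 tested members 88 were called, 68 higher and 20 lower, next to 11317 of 13334 genes (84.9%), 13.6% higher and 71.2% lower. The median member was higher by 1.62 and the median gene lower by -1.34. With median-ratio scaling 87 members and 72.7% of genes were called, 79 members higher and 8 lower, and the median of all genes moved to -0.05. The share of all genes by direction is not given here for that scaling, so the members' split has no background.

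Directions differed between and within complexes. In complex I 32 of 37 members were higher and 5 lower, in complex III 5 and 4 of 9, in complex V 13 and 4 of 17, and among the Ndufaf assembly factors 3 and 4 of 8. All 14 tested members of complex IV were higher, while 3 of 4 in complex II were lower and Sdhb was level at 207 to 244 TPM in run 2 and 208 to 240 TPM elsewhere. Sdha was at 51.9, 54.8 and 56.7 TPM in control clones 6 to 8, against 245 to 294 TPM elsewhere, 5.09-fold lower. Ndufb4 was 5.09-fold higher, at a mean of 384 TPM against 75.4 TPM. All 36 members with transcripts under 700 bases were higher, and so were 22 of 25 between 700 and 1100 bases, whereas 17 of 29 of 1100 bases or more were lower and 10 higher. The share of all genes by direction was not taken within each length class, so these counts have no background. Across the 90 members the Spearman correlation of length with this difference was -0.63, and across 13184 genes -0.41, a description across genes of the same libraries. Ribosomal protein genes, also short, made up 15.0% to 15.9% of TPM in control clones 6 to 8 and 2.81% to 4.35% in the others. Run and clone cannot be told apart for these libraries.

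**Figure D5:**
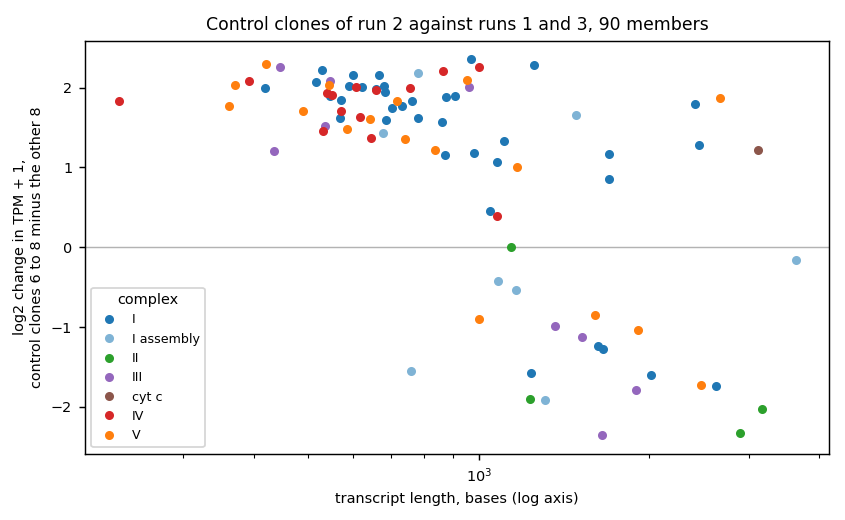
Difference in log2(TPM + 1) between control clones 6 to 8 and the other 8 control clones for 90 members, against transcript length (log axis), coloured by complex. All 36 members under 700 bases lie above 0, and the 3 lowest points, Uqcrc1, Sdha and Sdhc, exceed 1100 bases.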

How the data were processed

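Total RNA of 22 libraries was measured by RNA sequencing (SMARTer cDNA, Nextera XT, paired-end), per the labels' protocols. STAR and RSEM are named in the submitters' processing notes, without versions; genome build and annotation release are not given in the sources used here. The deposited values were read as TPM here because every column has the same total. TPM keeps no depth, so no counting interval is given. 

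Each knockout label was compared with the control clones of its run with limma 3.58.1 in R 4.3.3 (lmFit, eBayes with trend) on log2(TPM + 1). Genes averaging 1 TPM or more in the libraries compared were kept; p-values were adjusted by Benjamini and Hochberg's method across these genes and called below 0.05. Errors given as ± after log2 values are standard errors; the scale understates changes of low genes. Differences between labels came from 1 fit of 22 libraries with a mean for each label in each run. The fit named with run as a covariate is the same fit. Its log2 differences equal those within each run, and its spread per gene is taken from all 22 libraries. Transcript lengths are medians of the principal transcripts in GENCODE M21. Motifs were searched in RefSeq promoters (GRCm38.p6) with Python 3.11.15.

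Members, gene lists and tests were chosen with earlier results of these data known. Named were members called in a comparison (up to 8 in each direction), up to 2 in each direction with the largest differences among those with a mean of at least 10 TPM and groups apart, a standing list of core subunits and isoforms, Aqp2 and the targeted genes, and up to 4 called genes of each list. Sdhd, Ndufa10, Ndufa11, Nubpl and the chromosome pattern were in part singled out after their values were seen. Alternatives were another pseudocount, other filters, other scalings, run as a covariate, all control clones, a replicate block, leaving out libraries and, chosen after seeing the data, removal of chromosome medians. Replicate numbers are shared by control clones and ATF1-KO; correlations of same-numbered deviations ran from -0.10 to 0.08, so the numbers did not pair the samples. A further list gene is not reported here.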

Additional observations from a re-analysis of the deposited data

Results flagged for a closer look

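Among the named members, the change of Ndufb2 against own-run control clones differed between labels, by -0.98 between ATF1/CREB1-KO and ATF1-KO and by -1.44 between ATF1/CREB1/CREM-KO and ATF1-KO. In groups of 5, a single library lay far from the other 4 in 8 of 72 groups examined, where chance gives about 1 in 20. In ATF1-KO, replicate 1 was high for Cox7a1 (35.5 TPM), Ndufaf7 (82.6 TPM) and Ndufv3 (300.1 TPM), and replicate 3 low for Sdhb (220.1 TPM). Ndufaf7 and Ndufv3 lie on chromosome 17. Among control clones 1 to 5, clone 4 was high for Cox8a (1285 TPM), clone 2 high for Ndufv2 (216 TPM), clone 3 low for Ndufab1 (107 TPM) and clone 1 low for Ndufb2 (206 TPM).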

How the results depend on the processing

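For ATF1-KO, 0 members were called under every alternative; the median change, 0.04, lay between 0.017 (without control clone 3) and 0.050 (without its replicate 3) under the others and at -0.41 with all 11 control clones. Control clones and ATF1-KO share replicate numbers; with the replicate block 0 members were called and the median was 0.04, and 1 of 5 libraries correlated best with its own number, so the numbers were not taken to pair the samples. For ATF1/CREB1-KO, the count of calls was 2 with a run term (4.58% of genes), 38 with all 11 control clones (32.1%), and 0 to 2 when leaving out 1 library (2 without its replicate 3, 0.478%). The median change there was 0.15 with median-ratio scaling, 0.12 with quantile normalization, 0.049 without ribosomal protein and mitochondrial transcripts, 1.22 with all 11 control clones and 0.0054 to 0.11 when leaving out 1 library. For ATF1/CREB1/CREM-KO, 4 members were called without a filter (2.98% of genes) and 4 with a run term (8.02%), 0 with all 11 control clones (1.03%), 13 with chromosome medians removed (11.1%) and 2 to 22 when leaving out 1 library (1.40% to 25.1%; 22 without its replicate 1). Its median was 0.10 with median-ratio scaling, -0.22 with all 11 control clones, 0.087 with chromosome medians removed and 0.019 to 0.060 when leaving out 1 library. With all 11 control clones several directions reversed: Ndufb2 was at -0.32 in ATF1-KO and 0.59 in ATF1/CREB1-KO, Cycs at -0.070 in ATF1-KO, and Ndufa7 at -0.051 and Ndufa11 at -0.045 in ATF1/CREB1/CREM-KO; that setting mixes runs whose control clones differ. For the difference between ATF1/CREB1-KO and ATF1-KO, 0 members were called with quantile normalization (2.48% of genes; Ndufb2 at -0.75, limma adjusted p = 0.056) and 0 to 5 when leaving out 1 library (0 without control clone 6, 0.66%; 5 without ATF1/CREB1-KO replicate 3, 4.66%; 3 and 2 without its replicates 1 and 2, 3.17% and 4.41%). Between ATF1/CREB1/CREM-KO and ATF1-KO, 3 were called with quantile normalization (3.76%) and 1 to 3 when leaving out 1 library (3 without ATF1/CREB1-KO replicate 3, 6.60%; 2 without its replicate 2, 3.91%, or ATF1/CREB1/CREM-KO replicate 1, 5.11%). Removal of chromosome medians, and leaving out libraries in the differences between labels, were chosen after seeing the data. TPM keeps no depth, so counting error could not be set beside the spread between libraries.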
